A study of Mus musculus with 9 samples.

Results

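The 10 core genes of the circadian clock, Arntl, Clock, Per1, Per2, Per3, Cry1, Cry2, Nr1d1, Nr1d2 and Dbp, were taken by symbol from the 55471 genes of a neonatal muscle transcriptome, and all 10 were found and passed the filter on low counts. RNA came from the gastrocnemius, a calf muscle, of 5 Shank3Δ11(-/-) mice (KO1 to KO5), in which both copies of Shank3 lack exon 11, and 4 Shank3(+/+) mice (WT1 to WT4). All are labelled C57BL/6 at postnatal day 0 to 1, with 1 library per mouse and no treatment named. By the study's methods the mutants came from matings of heterozygous C57BL/6JRj mice and wild-type C57BL/6 mice from a university animal centre, and whether the Shank3(+/+) mice were littermates of the mutants is not stated. The study's question was how loss of this scaffold protein of synapses and muscle changes newborn muscle. The clock genes bear on it in another way as well, since mice taken at different clock times could differ in them whatever their genotype. The sources used here give no time of death, litter or sex, and replicate numbers are not said to mark anything shared. A single sample per mouse holds no amplitude of a rhythm, so only the spread between mice and the difference between genotypes were measured.

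The clock is a loop of transcription. BMAL1, the product of Arntl, pairs with CLOCK on E-boxes of DNA and switches on the Per, Cry, Nr1d1, Nr1d2 and Dbp genes. PER and CRY proteins then return to the nucleus and hold BMAL1 and CLOCK back. NR1D1 and NR1D2 (REV-ERBα and REV-ERBβ) repress Arntl through sites called RORE, which ROR receptors use to activate it. DBP acts on D-boxes, where NFIL3 opposes it. In an adult muscle with a running clock Arntl is therefore high when Dbp and Nr1d1 are low, and the reverse. Per1 is also switched on directly by glucocorticoids and by CREB, a factor of cAMP signalling that binds the CRE site, and can thus rise apart from the loop.

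These sites can be read in the promoters of the clock genes themselves. RefSeq windows on GRCm38.p6, from 250 bases before to 50 bases after a start site, were at hand for 9 of the 10 genes; that of Per2 was not used here. The letters searched on both strands were CACGTG (E-box), CACGTT (E-prime box, whose other strand reads AACGTG), TTANGTAA (D-box), TAGGTCA or TGGGTCA (RORE) and TGACGTC (CRE). No motif overlaps another in the stretches printed here, which show each site in capitals in 60 bases on the strand of the gene, or 30 where it lies in an exon. Distances count from the start site.
Per1, E-box at -166 to -161, chr11:69098756-69098815 (+): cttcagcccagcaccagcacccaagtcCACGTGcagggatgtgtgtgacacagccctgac
Per1, second start site, CRE at -132 to -126, chr11:69099993-69100052 (+): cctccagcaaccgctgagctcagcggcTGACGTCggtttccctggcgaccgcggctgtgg
Per3, D-box at -205 to -198, chr4:151044837-151044896 (-): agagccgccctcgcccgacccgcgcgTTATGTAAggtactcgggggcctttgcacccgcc
Per3, D-box at -158 to -151, chr4:151044790-151044849 (-): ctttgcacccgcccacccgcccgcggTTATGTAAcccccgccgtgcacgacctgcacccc
Cry1, E-prime box at -79 to -74 and E-box at -60 to -55, chr10:85185082-85185141 (-): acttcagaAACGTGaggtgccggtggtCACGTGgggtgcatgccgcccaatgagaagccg
Cry2, E-prime box at -166 to -161, chr2:92434203-92434262 (-): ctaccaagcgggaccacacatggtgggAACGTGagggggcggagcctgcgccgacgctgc
Nr1d1, E-prime box at -28 to -23, chr11:98775373-98775432 (-): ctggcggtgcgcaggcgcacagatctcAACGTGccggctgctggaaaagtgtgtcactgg
Arntl, second start site, RORE at 30 to 36, chr7:113207529-113207558 (+): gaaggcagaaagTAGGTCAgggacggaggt

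The 9 genes had 13 such windows, up to 3 for a gene, whereas the shares of all promoters count single windows. An E-box was found in 2 of the 9 genes (Per1 and Cry1), against 7.15% of all 32851 promoter windows. An E-prime box was found in 3 (Cry1, Cry2 and Nr1d1), against 4.68%. The D-box stood in Per3 alone, which held it at 2 places, and in 2.32% of all windows. One gene held a RORE (Arntl, 6.45% of all windows) and one a CRE (Per1, 3.21%). Clock, Nr1d2 and Dbp held none of these letters in their windows. A match describes the sequence and is not a measured site of binding.

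Library totals lay between 26444372 and 40471957 counts (median 31435732, n = 9). Levels are CPM, a gene's count as a rate of the TMM-scaled library total. All 8 skeletal muscle markers were counted in every mouse, led by the actin Acta1 at 17434 to 21225 CPM. KO5 was high in markers of fat and of Schwann cells. The 7 adipocyte markers, of which 4 passed the filter on low counts, summed to 1129 CPM in KO5, 186 to 403 CPM in the other Shank3Δ11(-/-) mice and 211 to 289 CPM in Shank3(+/+). Outside KO5 nearly all of this sum was Fabp4. Adipoq was at 78.7 CPM in KO5, 9.02 in KO1, 2.82 in KO2 and at most 1.71 in the other mice. Plin1 was at 33.7 CPM in KO5, 4.42 in KO1, 2.72 in KO2 and at most 0.854 in the other mice. Ucp1 was at 0 in 6 and Lep in 8 of the 9 mice. The 5 Schwann cell markers summed to 690 CPM in KO5, against at most 410 CPM elsewhere. KO1 had 4360 CPM of 5 erythroid markers, against at most 1645 CPM elsewhere. KO4 had 261 CPM of 5 cartilage and bone markers, against at most 125 CPM elsewhere, and the highest Col1a1, a collagen gene, at 12987 CPM. Y-linked genes summed to 190 to 248 CPM in KO1, KO2, KO4, WT1 and WT2 and to at most 0.423 CPM in the others. In such bulk tissue fewer cells of a type and less RNA per cell cannot be told apart. Shank3 itself was counted at 25.8 to 38.5 CPM over the mice, a gene-wide count that does not check the deletion of an exon.

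Genotypes were compared in the 7 mice of the study's own analysis, where WT1 to WT4 stood against KO1, KO3 and KO5 because KO2 and KO4 were set aside for insufficient reads, and then in all 9. In the deposited counts these mice were not the shallowest, with totals of 40471957 for KO4 and 28211941 for KO2 against 26444372 for KO5. No clock gene passed the test of genotype. Of the 10 members 0 reached p below 0.05 in edgeR's 2-sided quasi-likelihood test in the 7 mice, where 2.08% of all 21809 genes tested did (453 genes, 1.16% higher and 0.917% lower in Shank3Δ11(-/-)), and 0 in all 9 mice, where 2.03% of 21735 genes did (1.16% higher and 0.874% lower). At the study's criterion of p below 0.05 with FDR below 25%, 0% of all genes were called in either comparison by edgeR, and in the 7 mice limma-voom called 0 genes and DESeq2 6. None of the 3 tools gave a clock gene p below 0.05. The study, using limma, reported many differentially expressed genes at that criterion, which these fits did not return. Levels of the genotypes overlapped for all 10 members in both comparisons. Of all genes 2.84% in the 7 mice and 0.686% in the 9 showed no overlap. At these shares, and at those of p below 0.05, few of any 10 genes would stand out. The median log2 fold change, Shank3Δ11(-/-) minus Shank3(+/+), was 0.085 over the members and -0.0081 over all genes in the 7 mice, and the median size without sign was 0.090 and 0.10. FDR was 1.00 for every member, so only the unadjusted p is given below, each from edgeR, with the exact permutation test of mean log2 CPM beside it. That 2-sided test cannot fall below 0.0286 with 3 against 4 mice or 0.00794 with 5 against 4. Nothing says whether the mice came from separate litters, so these p-values measure the spread between these animals.

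**Figure D1:**
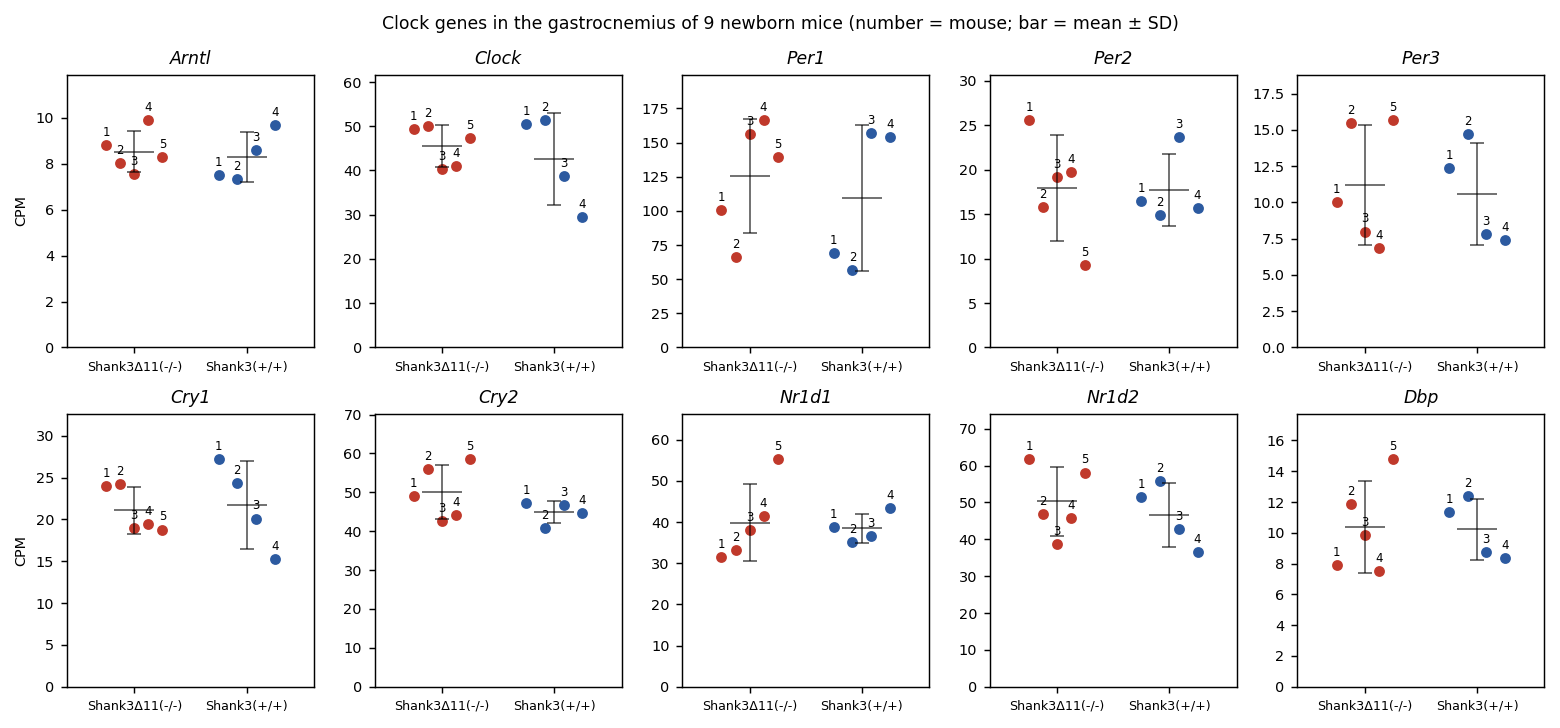
CPM of the 10 clock genes (vertical axis, from 0) in each Shank3Δ11(-/-) (red) and Shank3(+/+) (blue) mouse, numbered by mouse, with bars at the mean ± SD (n = 5 and n = 4). The genotypes overlap in every panel, and Per1 lies at 57.0 to 100 CPM in mice 1 and 2 of both genotypes and at 139 to 167 CPM in the others.

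Arntl and Clock form the activating arm. Arntl (ENSMUSG00000055116, chromosome 7 from 113207465 to 113314126, GENCODE M21 on mm10) encodes BMAL1, without which the loop stops. It was counted at 8.84, 8.05, 7.56, 9.91 and 8.28 CPM in KO1 to KO5 and at 7.51, 7.36, 8.61 and 9.70 CPM in WT1 to WT4. These levels lay close together, with KO4 and WT4 the highest and WT2 the lowest. The log2 fold change was -0.021 in the 7 mice (standard error 0.15, 95% CI -0.36 to 0.32, edgeR p = 0.893, exact permutation p = 0.914) and 0.041 in all 9 (edgeR p = 0.758). The sign thus turned with the choice of mice. Clock (ENSMUSG00000029238, chromosome 5 from 76209868 to 76304792) encodes the partner of BMAL1. Its levels were 49.3, 50.2, 40.2, 40.9 and 47.3 CPM in Shank3Δ11(-/-) and 50.5, 51.4, 38.7 and 29.6 CPM in Shank3(+/+). WT4 was the lowest, and the other 8 mice lay between 38.7 and 51.4 CPM. Clock differed by 0.094 in the 7 mice (standard error 0.18, 95% CI -0.30 to 0.49, edgeR p = 0.611, exact permutation p = 0.686) and by 0.10 in all 9 (edgeR p = 0.528). Npas2, which can stand in for Clock, was at 4.66 to 6.46 CPM in the 9 mice.

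Of the Per genes, Per1 (ENSMUSG00000020893, chromosome 11 from 69095217 to 69109960) varied most between mice. It stood at 100, 66.1, 156, 167 and 139 CPM in KO1 to KO5 and at 69.4, 57.0, 157 and 154 CPM in WT1 to WT4. Low and high levels crossed genotype, with KO2, WT1 and WT2 at 57.0 to 69.4 CPM and KO3, KO4, KO5, WT3 and WT4 at 139 to 167 CPM. KO1 lay in between at 100 CPM. Mice numbered 1 and 2 were thus below those numbered 3 and 4 in both genotypes. KO5, which has no Shank3(+/+) mouse of its number, was among the high ones. Mice 1 and 2 of both genotypes all had Y-linked counts, as did KO4 among the 5 high ones. The part of Y-linked status in the level of Per1 was not tested. Shank3Δ11(-/-) mice averaged 126 ± 41.8 CPM (SD, n = 5) against 109 ± 53.7 CPM (SD, n = 4) in Shank3(+/+) mice. The log2 fold change of Per1 was 0.26 in the 7 mice (standard error 0.39, edgeR p = 0.528, exact permutation p = 0.457) and 0.20 in all 9 (edgeR p = 0.596). The 95% CI ran from -0.65 to 1.17, that is from 0.635-fold to 2.26-fold. Among mice with Y-linked counts the log2 ratio of mean CPM was 0.81 (3 against 2 mice), and among those without it was -0.076 (2 against 2 mice).

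Per2 (ENSMUSG00000055866, chromosome 1 from 91415982 to 91459324) is the period gene whose loss disturbs the daily rhythm of activity. It was counted at 25.6, 15.8, 19.2, 19.7 and 9.27 CPM in Shank3Δ11(-/-) and at 16.4, 14.96, 23.7 and 15.7 CPM in Shank3(+/+). KO1 was the highest of all mice and KO5 the lowest, so both extremes were Shank3Δ11(-/-). Per2 differed by 0.018 in the 7 mice (standard error 0.30, 95% CI -0.65 to 0.69, edgeR p = 0.953, exact permutation p = 0.914) and by 0.020 in all 9 (edgeR p = 0.935). Without KO1 the 7-mouse value was -0.32. Per3 (ENSMUSG00000028957, chromosome 4 from 151003652 to 151044665) carries the pair of D-boxes printed above. It stood at 10.03, 15.5, 7.997, 6.86 and 15.7 CPM in Shank3Δ11(-/-) and at 12.3, 14.7, 7.85 and 7.42 CPM in Shank3(+/+). KO2, KO5 and WT2 were high and KO3, KO4, WT3 and WT4 low, with KO1 and WT1 in between. Per3 differed by 0.076 in the 7 mice (standard error 0.28, 95% CI -0.56 to 0.71, edgeR p = 0.796, exact permutation p = 0.857) and by 0.077 in all 9 (edgeR p = 0.787). Leaving out KO5 took the 7-mouse value to -0.24.

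Cry1 and Cry2 encode the repressors that PER proteins accompany. Cry1 (ENSMUSG00000020038, chromosome 10 from 85131700 to 85185064) was at 24.0, 24.2, 19.0, 19.4 and 18.8 CPM in Shank3Δ11(-/-) and at 27.2, 24.4, 20.1 and 15.2 CPM in Shank3(+/+). Mice 1 and 2 of each genotype were above the other 5 mice. The log2 fold change of Cry1 was -0.086 in the 7 mice (standard error 0.19, 95% CI -0.50 to 0.32, edgeR p = 0.652, exact permutation p = 0.800) and -0.045 in all 9 (edgeR p = 0.782). Cry2 (ENSMUSG00000068742, chromosome 2 from 92403646 to 92434043) was at 48.9, 56.0, 42.7, 44.1 and 58.5 CPM in Shank3Δ11(-/-) and at 47.3, 40.9, 46.8 and 44.7 CPM in Shank3(+/+). KO2 and KO5 were above all others and KO1 was also above every Shank3(+/+) mouse, while KO3 and KO4 lay within the Shank3(+/+) range. Cry2 had a log2 fold change of 0.15 in the 7 mice (standard error 0.12, 95% CI -0.13 to 0.42, edgeR p = 0.257, exact permutation p = 0.371) and 0.16 in all 9 (edgeR p = 0.182).

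Nr1d1 and Nr1d2 encode the receptors that repress Arntl. Nr1d1 (ENSMUSG00000020889, chromosome 11 from 98767932 to 98775333) was at 31.4, 33.3, 38.0, 41.5 and 55.3 CPM in Shank3Δ11(-/-) and at 38.7, 35.3, 36.7 and 43.4 CPM in Shank3(+/+). KO5 stood highest and KO1 lowest, with Shank3(+/+) in between. The difference was 0.10 in the 7 mice (standard error 0.18, 95% CI -0.29 to 0.49, edgeR p = 0.577, exact permutation p = 0.771) and 0.051 in all 9 (edgeR p = 0.742). Exons of Nr1d1 share 263 bases, 8.55% of its exon length, with Thra, the thyroid hormone receptor gene on the opposite strand, which was at 153 to 197 CPM. Since the sources used here do not give the strandedness of the libraries, reads there cannot be told apart. Nr1d2 (ENSMUSG00000021775, chromosome 14 from 18204054 to 18239127) was at 61.7, 46.8, 38.9, 45.9 and 58.1 CPM in Shank3Δ11(-/-) and at 51.6, 55.8, 42.7 and 36.6 CPM in Shank3(+/+). KO1 and KO5 were above all Shank3(+/+) mice and KO3 was below 3 of the 4. Nr1d2 differed by 0.17 in the 7 mice (standard error 0.18, 95% CI -0.23 to 0.57, edgeR p = 0.362, exact permutation p = 0.514) and by 0.11 in all 9 (edgeR p = 0.503).

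Dbp, an output gene driven by BMAL1 and CLOCK that swings widely in adult tissues, gives the most direct reading of the loop. It lies on chromosome 7 from 45705088 to 45710203 (ENSMUSG00000059824) and was counted at 7.93, 11.9, 9.85, 7.49 and 14.8 CPM in Shank3Δ11(-/-) and at 11.4, 12.4, 8.78 and 8.33 CPM in Shank3(+/+). KO5 was the highest, KO4 the lowest and KO1 next to it. KO4, high in cartilage and bone markers, was also at an extreme for Arntl, Per1 and Per3, and the 7-mouse values are without it. The part of those markers in its levels was not tested. The log2 fold change of Dbp was 0.076 in the 7 mice (standard error 0.22, 95% CI -0.42 to 0.57, edgeR p = 0.740, exact permutation p = 0.857) and 0.018 in all 9 (edgeR p = 0.931). Dbp shares 539 exon bases, 18.0% of its exon length, with Sphk2 on the opposite strand, counted at 18.9 to 24.8 CPM, with the same limit as for Nr1d1. Dbp, Nr1d1 and Per3 turned sign without KO5, the mouse highest in fat and Schwann cell markers. Over the other 8 mice the log2 fold change was -0.14 for Dbp, -0.094 for Nr1d1 and -0.069 for Per3. Over the other 6 mice of the study's comparison it was -0.21, -0.16 and -0.24. The part of fat and Schwann cell RNA in these values was not tested. In mice with Y-linked counts the log2 ratio of mean Dbp was -0.39 (3 against 2 mice), and in those without it was 0.53 (2 against 2 mice).

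**Figure D2:**
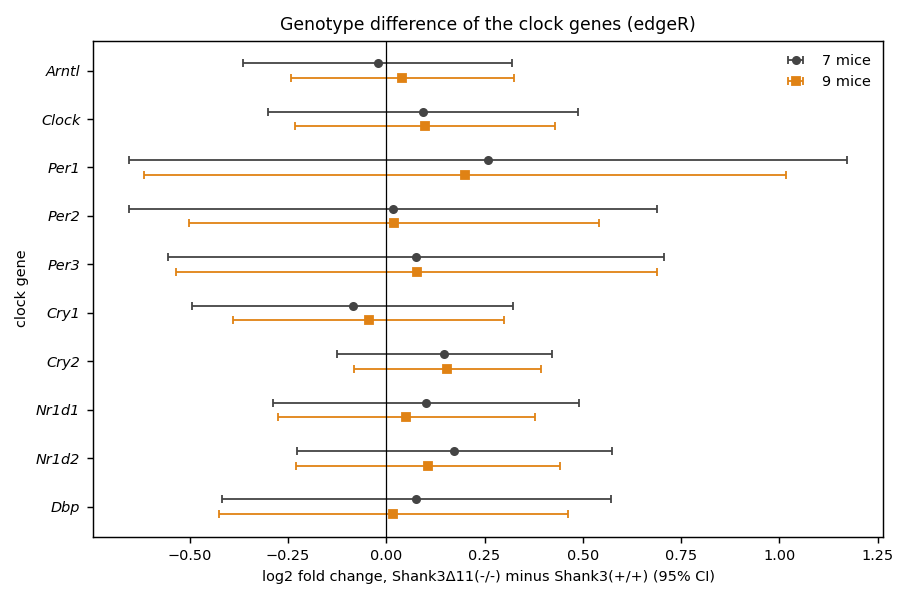
Log2 fold change of each clock gene, Shank3Δ11(-/-) minus Shank3(+/+), with the 95% CI of edgeR's fit as bars, for the 7 mice of the study's comparison (circles) and all 9 (squares). All 20 intervals include 0, the widest being that of Per1 from -0.65 to 1.17.

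Levels of different genes can be compared once divided by exon length. Per kilobase of exon, Per1 led with a mean of 21.0 ± 8.001 CPM per kb (SD, n = 9), followed by Nr1d1 at 12.8 ± 2.30 CPM per kb. Nr1d2, Cry2 and Cry1 came next at 8.996, 7.56 and 6.398 CPM per kb, then Dbp at 3.45, Clock at 3.22 and Per2 at 3.04 CPM per kb. Per3 and Arntl were the lowest, at 1.14 and 1.12 CPM per kb. Each gene's range over the mice overlapped that of its neighbour in this order. Of the 9 neighbouring pairs only Cry1 stood above Dbp in all 9 mice, and Clock above Per2 and Per3 above Arntl held in 4 of 9 mice each, which gives no order within those pairs.

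The Per genes and Dbp were the most spread between mice of the 10 members. Within genotype the SD of log2 CPM was 0.65 for Per1, 0.52 for Per3, 0.46 for Per2 and 0.36 for Dbp. For Cry1, Nr1d2, Clock and Nr1d1 it lay from 0.26 to 0.28, and for Arntl and Cry2 it was 0.16 each. The median over all 21735 genes tested was 0.24, 8 of the 10 members were above it, and their median percentile was 59.3. Per1 stood at percentile 94.3 of all genes, Per3 at 88.5, Per2 at 84.2 and Dbp at 73.3, while Cry2 was at 25.96 and Arntl at 25.9. Counting alone would give an SD of 0.026 for Per1 and 0.089 for Arntl, which leaves out the variation that separate animals bring. From lowest to highest mouse the level spanned 2.92-fold for Per1, 2.76-fold for Per2, 2.29-fold for Per3 and 1.97-fold for Dbp, against 1.35-fold for Arntl. The SD was higher in Shank3Δ11(-/-) than in Shank3(+/+) for 5 of the 10 genes and lower for the other 5.

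**Figure D3:**
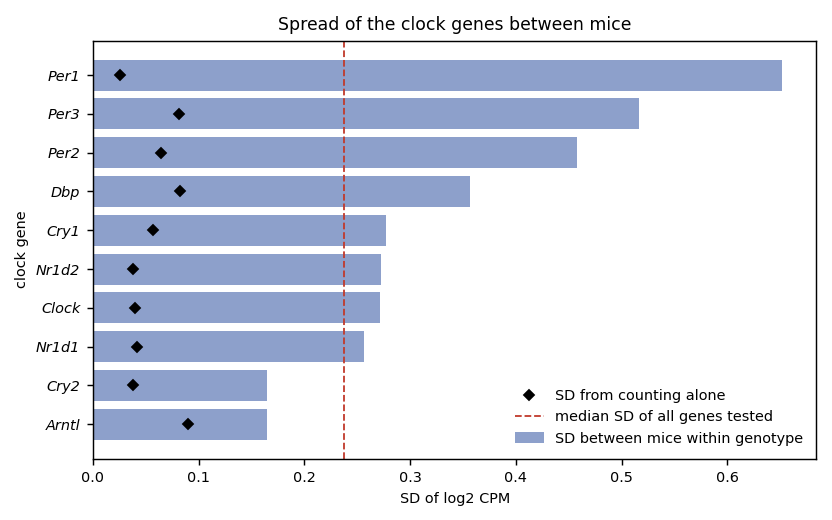
SD of log2 CPM between mice within genotype (bars) for each clock gene, with the SD that counting alone gives (diamonds) and the median of all genes tested, 0.24 (dashed line). Per1, Per3, Per2 and Dbp have the longest bars, 0.36 to 0.65, and Arntl and Cry2 the shortest at 0.16.

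Whether the mice differed in clock phase was described by a contrast for each mouse, the mean deviation in log2 CPM of Per1, Per2, Per3, Cry2, Nr1d1, Nr1d2 and Dbp from the 9-mouse mean minus that of Arntl, Clock and Npas2. It was -0.088, -0.026, 0.12, -0.12 and 0.12 in KO1 to KO5 and -0.064, -0.076, 0.072 and 0.058 in WT1 to WT4. Both signs occurred in each genotype. Shank3Δ11(-/-) mice averaged 0.0019 ± 0.11 (SD, n = 5) and Shank3(+/+) mice -0.0024 ± 0.078 (SD, n = 4), a gap inside the spread between mice. Dbp against Arntl alone gave a wider spread, at -0.42, 0.29, 0.12, -0.66 and 0.57 in KO1 to KO5 and 0.33, 0.49, -0.23 and -0.48 in WT1 to WT4. By that measure KO5, WT2, WT1 and KO2 were on the side of high Dbp and low Arntl, and KO4, WT4, KO1 and WT3 on the other. The first contrast had the opposite sign to Dbp against Arntl in 5 of the 9 mice. Taken without Per1 and Clock it was -0.030, 0.19, 0.053, -0.31 and 0.10 in KO1 to KO5 and 0.13, 0.18, -0.071 and -0.24 in WT1 to WT4. That version, which still holds Dbp and Arntl, had the sign of Dbp against Arntl in all 9 mice, so the sign of the contrast depended on Per1 and Clock in 5 mice. In each version both signs occurred in both genotypes.

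The genes were then correlated across the 9 mice, over 45 pairs, with exact permutation tests of Pearson's r and Spearman's rho. Mice 1 and 2 of both genotypes lay below the others in Per1 and above them in Cry1. After these values were seen, the 17 pairs of the 2 genes were set apart, and 28 pairs remained. The sets were not cleanly separate in log2 CPM, where KO1 deviated by -0.13 in Per1, between WT1 at -0.66 and KO5 at 0.34. Of the 28 pairs 16 had a positive and 12 a negative r. The pairs set apart include Clock and Cry1 (r = 0.88, exact permutation p = 0.00213, adjusted 0.0576), the lowest p for r of all 45. They also include Per1 and Cry1 (r = -0.83, exact permutation p = 0.00680, adjusted 0.0612). None of the 45 pairs passed adjustment over the pairs, where the lowest adjusted p was 0.0576 for r and 0.124 for rho. Before adjustment 10 pairs, 6 of them among the 28, had p below 0.05 for r, and 7 of the 45 for rho. The pairs that the loop sets against each other were mixed. Arntl and Dbp had r = -0.71 and rho = -0.77 (exact permutation p = 0.0368 and 0.0214, adjusted 0.166 and 0.160), with r = -0.48 without the 2 mice of most distant Arntl and -0.82 without those of most distant Dbp. Arntl and Nr1d1 had r = 0.22 and rho = 0.27 (exact permutation p = 0.589 and 0.493, adjusted 0.736 and 0.689), with r = -0.054 without the 2 mice of most distant Arntl and 0.69 without those of most distant Nr1d1.

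Among genes switched on by the same arm, Per3 and Dbp had r = 0.89 and rho = 0.88 (exact permutation p = 0.00395 and 0.00308, adjusted 0.0576 and 0.124), with r = 0.83 without the 2 mice of most distant Per3 and 0.82 without those of most distant Dbp. Per2 and Dbp had r = -0.81 and rho = -0.77 (exact permutation p = 0.00512 and 0.0214, adjusted 0.0576 and 0.160) and r = -0.59 without the 2 mice of most distant Per2 and -0.71 without those of most distant Dbp. Nr1d1 and Dbp had r = 0.35 and rho = 0.067 (exact permutation p = 0.373 and 0.880, adjusted 0.579 and 0.921), and r was -0.77 without the 2 mice of most distant Nr1d1 and -0.12 without those of most distant Dbp. Across the arms, Clock and Per3 had r = 0.77 and rho = 0.68 (exact permutation p = 0.0117 and 0.0503, adjusted 0.0877 and 0.228), with r = 0.83 without the 2 mice of most distant Clock and 0.78 without those of most distant Per3. Clock and Nr1d2 had r = 0.82 and rho = 0.73 (exact permutation p = 0.00430 and 0.0311, adjusted 0.0576 and 0.200), with r = 0.71 without the 2 mice of most distant Clock and 0.76 without those of most distant Nr1d2. Per2 and Nr1d1 had r = -0.75 and rho = -0.47 (exact permutation p = 0.0279 and 0.213, adjusted 0.139 and 0.398), but r was 0.11 without KO1 and KO5, the 2 mice of most distant Per2 and of most distant Nr1d1, so this relation rests on those mice.

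**Figure D4:**
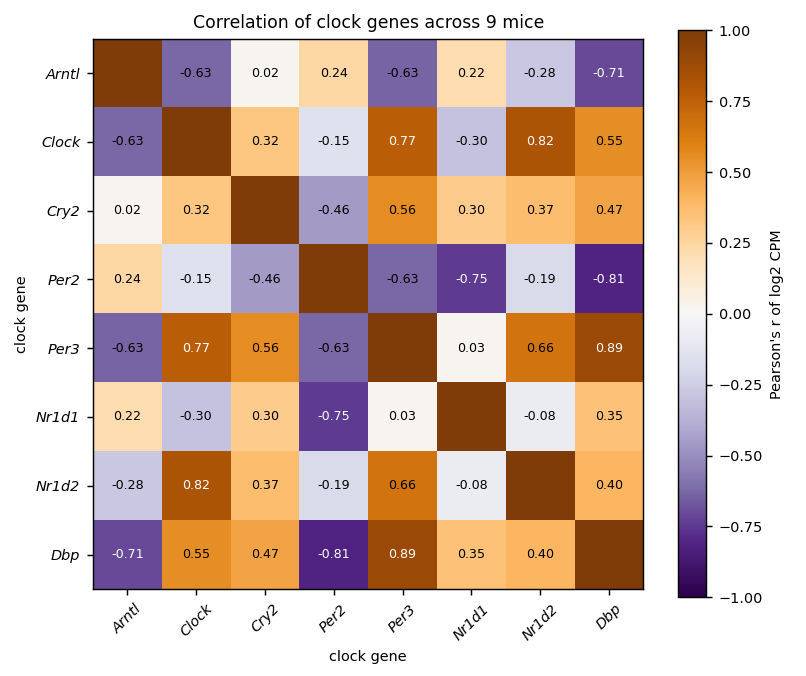
Pearson's r of log2 CPM across the 9 mice for the 28 pairs of clock genes without Per1 and Cry1 (colour and printed value, -1 to 1). Among these 28 pairs Per3 and Dbp (0.89) and Clock and Nr1d2 (0.82) have the highest r, and Per2 and Dbp (-0.81) the lowest.

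Of the 21734 other genes tested in 9 mice, those whose log2 CPM was most like Dbp were Brpf1 with r = 0.96, Gm5112 with r = 0.96, Pde12 with r = 0.95, 5430440P10Rik with r = 0.94 and Gm48079 with r = 0.94. Among the most opposite were Ndrg2 with r = -0.96, Fhl2 with r = -0.96, Xirp2 with r = -0.96 and A930003A15Rik with r = -0.95. These are descriptions over 9 mice, drawn as the extremes of a large number of genes counted in the same libraries. Per3 ranked 47th from the top, Arntl 21171st and Per2 21596th.

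Other genes of the loop were read in the same way. Of 22 partner genes, which include the ROR receptors, the PAR factors Tef and Hlf, the casein kinases and the F-box proteins that mark CRY for decay, all 22 were tested and 0 had p below 0.05 in edgeR in the 7 mice or in the 9, beside 2.08% and 2.03% of all genes, shares at which few of 22 genes would be called. In the 7 mice 13 had a positive and 9 a negative log2 fold change, with a median of 0.030. Of 10 muscle genes named as clock outputs, 1 had p below 0.05 in the 7 mice and 0 in the 9, beside the same shares of all genes. Myod1, the myogenic regulator bound by BMAL1 and CLOCK, was at 52.2, 48.7 and 38.6 CPM in KO1, KO3 and KO5 and at 57.2, 68.2, 54.5 and 65.4 CPM in Shank3(+/+). Its log2 fold change was -0.41 (standard error 0.13, edgeR p = 0.0109, FDR = 1.00, exact permutation p = 0.0286, the smallest possible). KO2 had 83.6 CPM, the highest of all, and KO4 35.5 CPM, and in all 9 mice the value was -0.25 (edgeR p = 0.265, exact permutation p = 0.278).

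Per1 answers to stimuli other than the loop, so genes of those pathways were read beside it. Of 15 immediate early genes, 0 had p below 0.05 in the 7 mice and 1 in all 9, beside 2.08% and 2.03% of all genes. The latter was Nr4a3, an orphan receptor, with a log2 fold change of 0.73 (standard error 0.32, edgeR p = 0.0423, FDR = 1.00, exact permutation p = 0.119). Of 11 glucocorticoid response genes, Per1 among them, 1 had p below 0.05 in the 7 mice and 0 in all 9, beside those same shares. It was Klf9, with a log2 fold change of 0.41 (standard error 0.15, edgeR p = 0.0224, FDR = 1.00, exact permutation p = 0.0857) in the 7 mice and 0.36 in all 9 (edgeR p = 0.237).

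Several genes of these lists were spread over the mice much as Per1 was, and the following were chosen after their values were seen. Nfil3, the repressor at D-boxes, was at 22.5, 13.1, 40.2, 38.8 and 21.5 CPM in KO1 to KO5 and at 15.2, 14.8, 39.6 and 37.6 CPM in WT1 to WT4. KO3, KO4, WT3 and WT4 were thus high, and KO5 was low although its Per1 was high. Klf15, a glucocorticoid-induced factor of muscle metabolism, was at 7.11, 4.49, 18.7, 14.2 and 4.86 CPM in Shank3Δ11(-/-) and at 4.07, 4.29, 20.2 and 13.4 CPM in Shank3(+/+), high in the same 4 mice. Fkbp5, which limits the glucocorticoid receptor, was at 34.2, 23.4, 63.6, 48.8 and 18.2 CPM in Shank3Δ11(-/-) and at 29.4, 35.8, 57.3 and 70.5 CPM in Shank3(+/+), again with those 4 highest. Ucp3, a mitochondrial carrier of muscle, ran the other way at 57.5, 42.9, 10.1, 7.78 and 47.4 CPM in Shank3Δ11(-/-) and 41.9, 31.8, 11.2 and 13.6 CPM in Shank3(+/+). KO3, KO4, WT3 and WT4 were its 4 lowest. The within-genotype SD of log2 CPM was 0.72 for Nfil3, 1.03 for Klf15, 0.68 for Fkbp5 and 1.19 for Ucp3, at percentiles 96.2, 99.1, 95.1 and 99.4 of all genes. None passed the test of genotype in the 7 mice, with log2 fold changes of 0.057, -0.041, -0.33 and 0.63 and exact permutation p = 0.886, 0.943, 0.543 and 0.571. The sources used here do not say what KO3, KO4, WT3 and WT4 share beyond their numbers. Y-linked counts were near 0 in KO3, WT3, WT4 and KO5 and present in KO4 and the other mice, and their part in these levels was not tested.

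**Figure D5:**
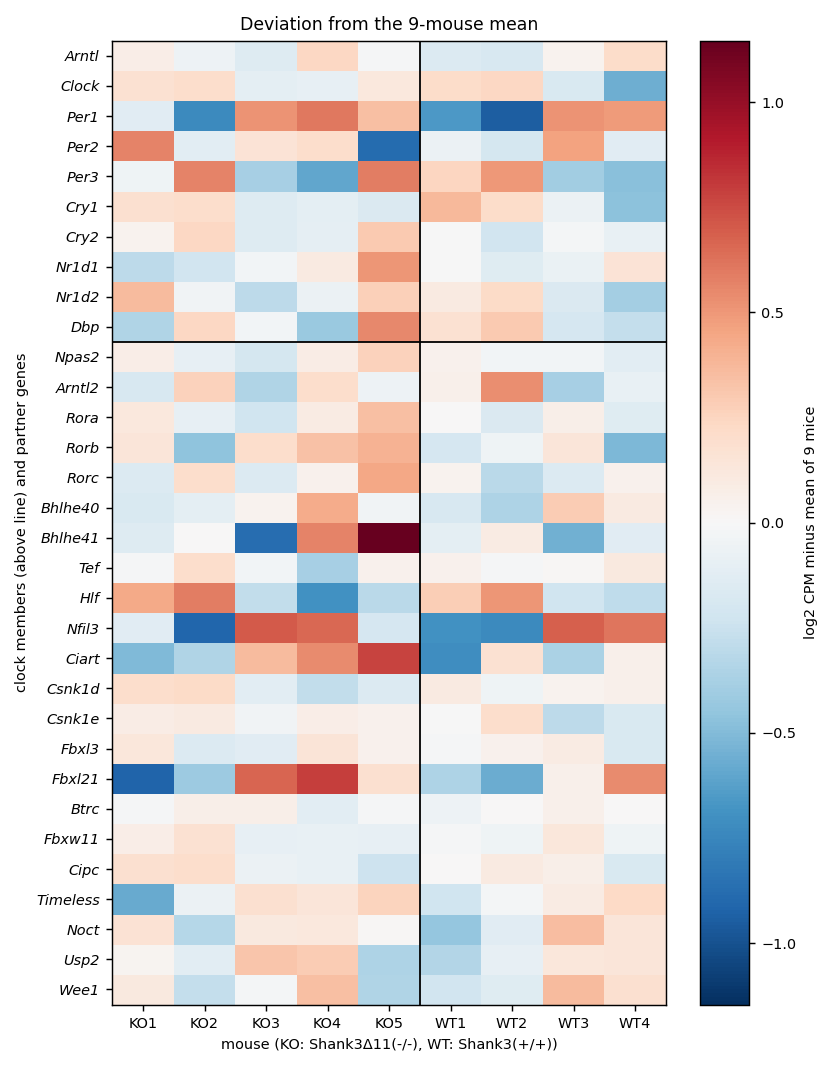
Deviation in log2 CPM from the 9-mouse mean (colour, red above and blue below) of the 10 clock genes (above the line) and 22 partner genes in each mouse. Per1 and Nfil3 are below the mean in KO1, KO2, WT1 and WT2 and above it in KO3, KO4, WT3 and WT4, whereas Per3 is above the mean in KO2, WT1 and WT2 and below it in the latter 4.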

How the data were processed

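Total RNA of 9 mice was sequenced by a service provider. The authors aligned reads to mm10 (GRCm38) with HISAT2, took the concordant ones and ran featureCounts, and the deposited values are raw counts per Ensembl gene. The sources used here do not give the annotation release or strandedness. Genes were filtered with filterByExpr (minimum count 10, minimum total 15) and tested with edgeR 4.0.16 in R 4.3.3 (TMM, robust quasi-likelihood, Benjamini-Hochberg over all genes tested). Log2 CPM used a prior count of 2. The clock genes and all lists were chosen with earlier results of these data known. Named were all clock genes, up to 3 genes per list and direction with p below 0.05, the most abundant gene of a marker list where it bore on a result, and the 5 genes most and least like Dbp, of which 1 is not reported here. Alternatives were all 9 mice, other filters and normalizations, DESeq2 1.42.0, limma-voom (limma 3.58.1), no robust estimation, a replicate block, a Y-linked covariate, thinned counts and each mouse left out. Positions are from GENCODE M21, promoters from RefSeq (GRCm38.p6). Permutations used SciPy 1.17.1.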

Additional observations from a re-analysis of the deposited data

Results flagged for a closer look

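Per2 in WT3, at 23.7 CPM, lay apart from the other 3 Shank3(+/+) mice, with a gap to the nearest of 0.831 of the range of the 4 mice. It was the only such value among 20 groups of mice and genes examined, and chance alone gives about 1 in 20.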

How the results depend on the processing

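Under 22 alternatives the 10 members gave 220 log2 fold changes between genotypes, of which 35 had another sign and 0 had p below 0.05 (edgeR's lowest, of Nr1d2 in a leave-one-out fit, against an exact permutation p of 0.514 in the 7 mice, was 0.0569). Nr1d2 and Per1 kept their sign in all 22. Other signs came with all 9 mice (Arntl 0.041), limma-voom (Per2 -0.051), the Y-linked covariate (Cry1 0.024), and, chosen after seeing the data, the same covariate in 9 mice (Arntl 0.046, Per2 -0.0052) and 9 mice but KO5 (Arntl 0.051, Per3 -0.069, Nr1d1 -0.094, Dbp -0.14). The cause was not tested.

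Same-numbered mice deviated together with correlations of 0.373, 0.0524, 0.357 and 0.101 for numbers 1 to 4. KO1, KO3 and KO4 correlated best with the Shank3(+/+) mouse of their own number and KO2 with WT1. The numbers were taken as pairs only if every correlation passed 0.1, which number 2 did not, and the labels do not say what a number marks. With the replicate block Arntl was 0.020, Per3 -0.15, Cry2 -0.045, Nr1d1 -0.13 and Dbp -0.18, and in 9 mice with the block, added after seeing the data, Arntl was 0.052, Per3 -0.078, Cry1 0.016, Nr1d1 -0.099 and Dbp -0.14. The block called 9 genes, or 2 in 9 mice, and 844 had p below 0.05, with 1 partner gene (Usp2). In the study's comparison WT2, WT4 and KO5 had no mouse of the other genotype with their number. With the block the genotype differences there thus came from KO1, WT1, KO3 and WT3 alone. So few mice leave little to measure the spread, and no conclusion is drawn from those calls. In 9 mice only KO5 lacked such a counterpart.

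Leaving out each mouse gave log2 fold changes from -0.075 to 0.068 for Arntl, -0.042 to 0.20 for Clock, 0.045 to 0.50 for Per1, -0.32 to 0.33 for Per2, -0.24 to 0.28 for Per3, -0.22 to 0.043 for Cry1, 0.018 to 0.25 for Cry2, -0.16 to 0.27 for Nr1d1, 0.049 to 0.35 for Nr1d2 and -0.21 to 0.26 for Dbp. Genes called ran from 0 to 15 and genes with p below 0.05 from 224 (without KO5) to 968 (without KO1, 794 without KO3), partner genes from 0 to 1 (Ciart without KO1, Bhlhe41 without KO3) and correlations passing adjustment from 0 to 2, with Per3 and Dbp passing without KO1 (adjusted p = 0.0335) and Per1 and Per3 (adjusted p = 0.0223) and Clock and Cry1 (adjusted p = 0.0446) without KO5. With no filter 1 gene was called and 972 had p below 0.05. DESeq2 called 6, and 9 mice but KO5 gave 300 with p below 0.05. Counting error was highest for Arntl, at an SD of 0.089 on the log2 scale.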
